A study of Mus with 4 samples.

Results

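Leukocyte adhesion molecules of the endothelium are the surface proteins with which the vessel wall takes white blood cells out of the blood. The 5 genes described here were Icam1, Icam2, Vcam1, Sele and Selp. They were taken by Ensembl identifier from a deposited table of 54532 gene rows, as ENSMUSG00000037405 (Icam1), ENSMUSG00000001029 (Icam2), ENSMUSG00000027962 (Vcam1), ENSMUSG00000026582 (Sele) and ENSMUSG00000026580 (Selp). All 5 passed the filter on low counts, as did 15510 genes of the table. The data were RNA-seq read counts of liver sinusoidal endothelial cells (LSECs), which form the porous wall of the hepatic capillaries. The P1KO group, with 2 libraries called KO1 and KO3, came from mice in which Pofut1 was knocked out, in the endothelium according to the title of the series. The controls were CTL, with 2 libraries called CTL1 and CTL2, whose alleles the labels do not spell out. Mice of both genotypes had received carbon tetrachloride (CCl4), a liver toxin that injures hepatocytes and leads to fibrosis, so the comparison is between injured livers and holds no uninjured one. POFUT1 adds O-linked fucose to EGF-like repeats, and Notch receptors are its best known substrates.

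The labels name no Cre driver, strain, age, dose or time of CCl4, and no animal behind a library. The p-values therefore rest on differences among libraries, which could be technical. The labels give liver and LSECs, but their RNA extraction protocol speaks of heart ventricles, and the table pairs no identifier with a symbol. Markers of sinusoidal endothelium, leukocytes, platelets, hepatocytes and heart, and Pofut1 itself, were not analysed here, so neither the cell type nor the knockout was checked. Library totals ran from 17464769 to 17918834 counts. Levels are CPM (counts scaled to a fixed library total) after TMM scaling, and they compare libraries, not genes, because no transcript lengths were used.

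Leukocytes leave the blood in steps. Selectins on the endothelium bind sugar-bearing ligands such as PSGL-1 and let the cells tether and roll, and adhesion molecules of the immunoglobulin superfamily then bind activated integrins and arrest them. P-selectin, the product of Selp, is stored in granules of endothelial cells and platelets and moves to the surface within minutes of stimulation. E-selectin, the product of Sele, is made after cytokine stimulation. ICAM-1 and ICAM-2 bind the integrin LFA-1, ICAM-1 also binds Mac-1, and VCAM-1 binds VLA-4. In liver sinusoids much of the arrest of leukocytes is known to proceed without selectins, and ICAM-1 is present on resting LSECs.

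Of these genes, Selp and Icam2 were higher in P1KO than in CTL libraries. Selp rose 2.19-fold and Icam2 1.22-fold. Sele, Vcam1 and Icam1 did not pass the test, at 1.32-fold, 1.09-fold and 1.04-fold. Thus 2 of the 5 genes were called higher and 0 lower, in a table where 19.5% of the tested genes were called, 9.68% of the tested genes higher and 9.84% lower (quasi-likelihood test of edgeR, adjusted p below 0.05 by Benjamini-Hochberg over 15510 genes). For all 5 genes both P1KO libraries lay above both CTL libraries in TMM-scaled CPM. For Icam1 this rests on the TMM scaling, since by library totals alone KO1 lay slightly below CTL2. Groups that did not overlap were common in the table, at 62.6% of tested genes, with P1KO higher in 30.5% and lower in 32.1%. The median log2 change was 0.29 over the 5 genes and -0.01 over all tested genes. In bulk RNA, fewer or more cells of a kind cannot be told apart from less or more RNA per cell.

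**Figure D1:**
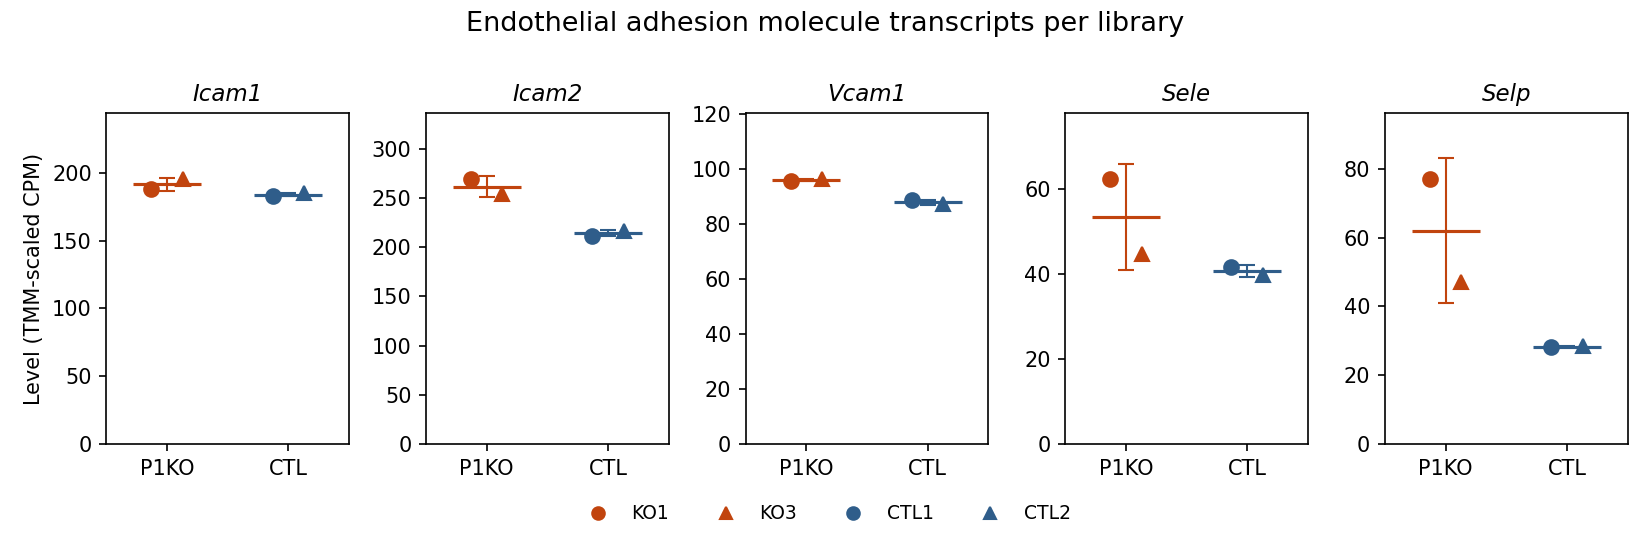
Level of each adhesion molecule transcript in TMM-scaled CPM, with 1 panel per gene and its own axis from 0; circles and triangles are libraries, horizontal lines group means and error bars SD (n = 2 each). Both P1KO libraries lie above both CTL libraries in every panel, and the P1KO libraries stand far apart for Selp (76.9 and 47.1 CPM) and Sele (62.3 and 44.7 CPM).

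The selectin genes both lie on chromosome 1, with Sele at positions 164039614 to 164058487 and Selp at 164115264 to 164150026 (GRCm38, RefSeq annotation). RefSeq places a long noncoding RNA across part of each, Gm51665 over 6031 bases of the span of Sele and Gm16548 over 1451 bases of that of Selp. These overlaps are of whole gene spans, introns included, and overlap of exons was not examined. The strand setting of the counting is not given in the sources used here. Whether reads of such partners were counted with those of the selectin genes could thus not be checked.

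Selp had 1353 reads in KO1 and 838 in KO3, against 494 in CTL1 and 508 in CTL2. These reads correspond to 76.9 and 47.1 CPM in the P1KO libraries, against 28.1 and 28.4 CPM in the CTL libraries. The controls were almost equal, and both knockout libraries lay well above them, KO1 far more than KO3. The mean was 62.0 ± 21.1 CPM in P1KO and 28.3 ± 0.217 CPM in CTL (SD, n = 2 each). The log2 change was 1.13 ± 0.20 (SE, edgeR adjusted p = 0.00891), with a 95% interval of 1.58-fold to 3.04-fold. Of all tested genes, 98.3% had a lower log2 change than Selp.

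Each knockout library taken alone placed Selp above the controls, KO1 at 2.72-fold and KO3 at 1.66-fold the CTL mean. The log2 change was 0.73 without KO1 and 1.44 without KO3, so its size rests on which knockout library is used. The call ended without CTL1 (log2 change 1.12, edgeR adjusted p = 0.172) and without CTL2 (1.13, 0.167), fits whose spread came from the P1KO pair alone and which called 0.832% and 0.774% of all tested genes. It also ended without a filter on low counts (1.13, 0.0528), where 6.24% of genes were called.

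Sele, the other selectin gene, had 1096 reads in KO1 and 796 in KO3, against 731 in CTL1 and 709 in CTL2. In CPM this was 62.3 and 44.7 in the P1KO libraries, against 41.6 and 39.7 in the CTL libraries. KO1 stood apart, and KO3 was close to the controls. Means were 53.5 ± 12.4 CPM in P1KO and 40.7 ± 1.37 CPM in CTL (SD, n = 2 each). The log2 change of 0.40 ± 0.14 (SE) did not pass after adjustment (edgeR adjusted p = 0.0958). Its unadjusted 95% interval ran from 1.04-fold to 1.66-fold, so a rise of up to that size is compatible with these libraries. KO1 was at 1.53-fold and KO3 at 1.10-fold the CTL mean, and of the 13 alternatives run Sele passed only without KO3, where its log2 change was 0.62.

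The immunoglobulin superfamily genes lie apart from each other, Icam1 on chromosome 9 (21015940 to 21028814), Icam2 on chromosome 11 (106377656 to 106388139) and Vcam1 on chromosome 3 (116110020 to 116129688). No other gene of the RefSeq table overlaps their spans. For all 3, KO1 and KO3 agreed more closely than they did for either selectin gene.

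Icam2 encodes an adhesion molecule that endothelium carries at rest, largely at its junctions. It had 4733 reads in KO1 and 4528 in KO3, against 3722 in CTL1 and 3870 in CTL2. The levels were 269 and 254 CPM in P1KO, against 212 and 217 CPM in CTL. The groups were clearly separated, with a gap between them larger than the distance between the libraries of either group. Means were 262 ± 10.3 CPM in P1KO and 214 ± 3.32 CPM in CTL (SD, n = 2 each), and the log2 change was 0.29 ± 0.06 (SE, edgeR adjusted p = 0.0125). The 95% interval was 1.11-fold to 1.34-fold, so the change of Icam2 was small, and 60.2% of tested genes changed less in absolute size. By log2 change with its sign, the measure given for Selp, 83.7% of tested genes were lower than Icam2. In the same fits without CTL1 and without CTL2 the call ended (edgeR adjusted p = 0.225 and 0.196), with log2 changes of 0.27 and 0.30.

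Vcam1, whose product binds the integrin VLA-4 of lymphocytes and monocytes, had 1688 and 1714 reads in KO1 and KO3, against 1557 and 1559 in CTL1 and CTL2. Its level was 95.9 and 96.3 CPM in P1KO libraries, against 88.7 and 87.3 CPM in CTL libraries. The libraries of each group were nearly equal, and the knockout pair lay slightly above the control pair. The log2 change was 0.13 ± 0.06 (SE), from 96.1 ± 0.269 CPM in P1KO and 88.0 ± 0.983 CPM in CTL (SD, n = 2 each), and it did not pass (edgeR adjusted p = 0.162). The 95% interval of 0.996-fold to 1.20-fold leaves room for a small rise and for none.

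Icam1, a cytokine-inducible gene that LSECs also express at rest, showed the smallest difference of the 5. It had 3312 and 3471 reads in KO1 and KO3, against 3211 and 3301 in CTL1 and CTL2. That was 188 and 195 CPM in P1KO, against 183 and 185 CPM in CTL. Here KO3 was the higher knockout library, the reverse of Selp, Sele and Icam2. KO1 was barely above CTL2, and only after TMM scaling. Means were 192 ± 4.82 CPM in P1KO and 184 ± 1.37 CPM in CTL (SD, n = 2 each), and the log2 change was 0.06 ± 0.05 (SE, edgeR adjusted p = 0.495). The 95% interval, 0.954-fold to 1.14-fold, lies below the estimates for Icam2 and Selp. It overlaps the interval of Icam2 (1.11-fold to 1.34-fold), and the changes of Icam1 and Icam2 were not tested against each other.

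**Figure D2:**
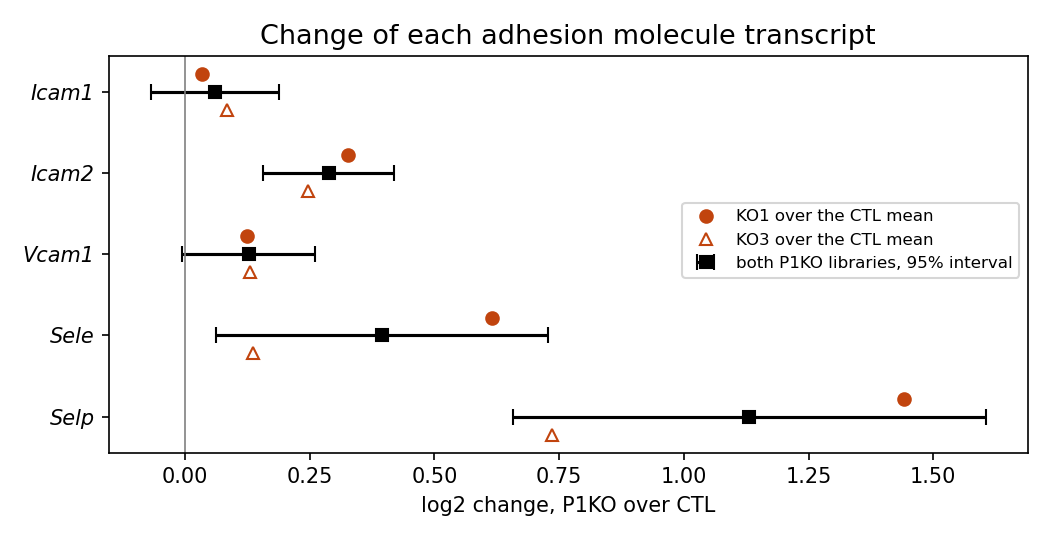
log2 change of each gene, P1KO over CTL; squares are estimates from all 4 libraries with their 95% intervals from edgeR, circles KO1 and open triangles KO3, each over the CTL mean. The interval of Selp (1.58-fold to 3.04-fold) lies above those of Icam1, Icam2 and Vcam1, and KO1 and KO3 part for Selp and Sele.

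**Figure D3:**
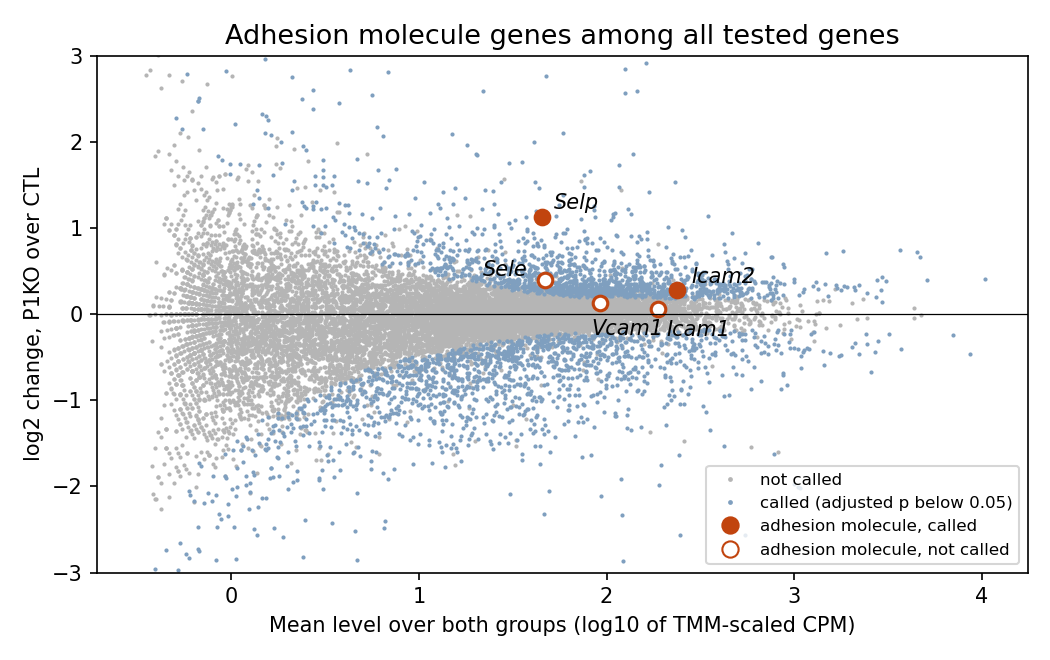
log2 change, P1KO over CTL, against mean level on a log10 axis for the tested genes, with 49 genes beyond 3 log2 units not drawn; large filled circles are adhesion molecule genes that were called, large open circles those that were not. Selp stands above 98.3% of tested genes by log2 change, and the other adhesion molecule genes lie within the bulk of the cloud.

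The selectin genes differed between the knockout libraries beyond counting error. KO1 held 1.63 times the Selp level of KO3, with a 95% interval of 1.497 to 1.782 (exact binomial on the reads). For Sele this ratio was 1.39, with an interval of 1.27 to 1.53. Icam2 was slightly higher in KO1, at a ratio of 1.06 (1.01 to 1.10). For Icam1, at 0.965 (0.920 to 1.01), and Vcam1, at 0.996 (0.931 to 1.07), the interval included 1. These intervals cover counting error only and compare libraries, not genotypes. The gap between KO1 and KO3 exceeded that of 90.8% of tested genes for Selp and of 83.7% for Sele. Between the controls the ratio of CTL2 to CTL1 ran from 0.953 for Sele to 1.02 for Icam2, and the interval included 1 for each of the 5 genes. The biological coefficient of variation over all tested genes was likewise larger in P1KO, at 12.1%, than in CTL, at 3.22%.

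**Figure D4:**
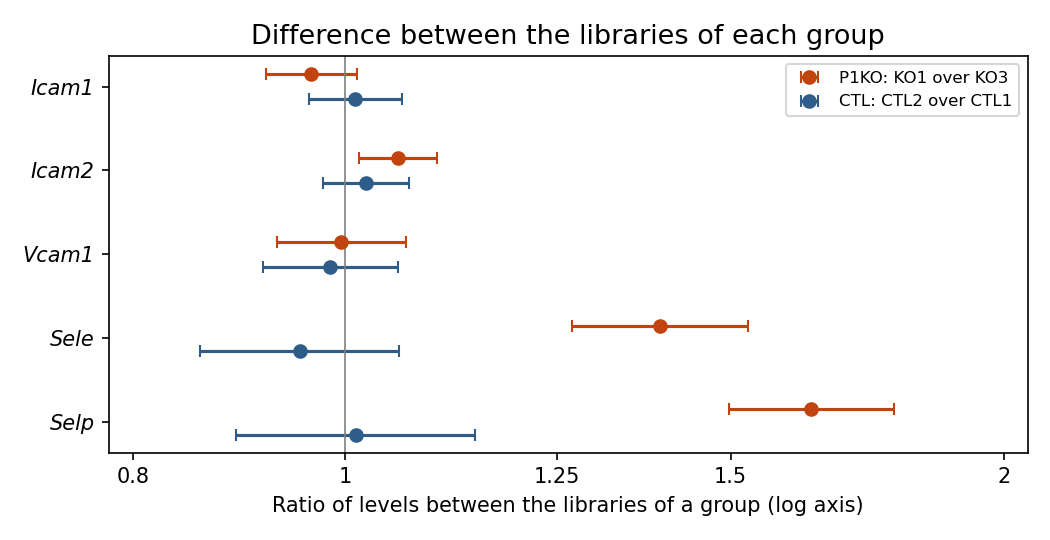
Ratio of levels between the libraries of a group on a log axis, with exact binomial 95% intervals; KO1 over KO3 is drawn above CTL2 over CTL1 for each gene. The knockout ratios of Selp (1.63) and Sele (1.39) stand clear of 1, whereas all control intervals include 1.

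Ratios of reads between genes of the same library do not depend on how libraries were scaled, and 10 such ratios were formed. Selp gained on all of the other 4 genes. There were 1.23 and 1.05 Selp reads per Sele read in KO1 and KO3, against 0.676 and 0.717 in CTL1 and CTL2. Both knockout libraries lay above both controls in this ratio, and KO3 was nearer to KO1 than to the controls. Against Icam1, Selp had 0.409 and 0.241 reads per read in KO1 and KO3, and 0.154 in each control. Vcam1 lost ground to Icam2, with 0.357 and 0.379 reads per Icam2 read in KO1 and KO3, against 0.418 and 0.403 in CTL1 and CTL2. The ratios of Sele to Icam2 and of Sele to Vcam1 overlapped between the groups, so the position of Sele relative to these genes did not separate the genotypes. The 10 ratios come from only 5 genes and share their members, so their number is no measure of support. No test was made on the ratios, since an exact 2-sided permutation test of 2 against 2 libraries cannot give a p below 0.333.

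The 5 genes together took 680 CPM of the unscaled library total in KO1 and 640 in KO3, against 556 in CTL1 and 559 in CTL2. Both selectin genes made up 20.1% of these reads in KO1 (exact binomial 95% interval 19.4% to 20.8%) and 14.4% in KO3 (13.8% to 15.1%). In CTL1 they made up 12.6% (12.0% to 13.3%) and in CTL2 12.2% (11.6% to 12.9%). The selectin share was thus highest in KO1, with KO3 between it and the controls.

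Profiles like those of the 5 genes were sought over the 4 libraries, as the smallest Euclidean distance between log2 CPM values centred on each gene's own mean. Among the tested genes, 1252 lay within 0.1 log2 units of Icam1, 1288 of Vcam1, 548 of Icam2, 11 of Sele and 0 of Selp. The nearest profile to Selp was that of ENSMUSG00000013766, at a distance of 0.112, a scarce transcript at 2.90 and 1.69 CPM in KO1 and KO3, against 1.08 and 1.01 CPM in CTL1 and CTL2. The nearest to Icam2 was ENSMUSG00000040084, at a distance of 0.0144, with 19.4 and 18.3 CPM in KO1 and KO3, against 15.4 and 15.7 CPM in CTL1 and CTL2. Neither of these nearest genes was itself called (edgeR adjusted p = 0.0875 and 0.113). The distance is not scaled by the size of a change, so genes that change little have more neighbours by construction. With 4 libraries such likeness is a description only.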

How the data were processed

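The authors deposited 1 table of raw read counts for 54532 Ensembl identifiers in 4 columns, all of which were used (0 left out). Per the submitters' processing notes, reads went through featureCounts 1.5.0-p3, HISAT2 2.0.5, fastp and CASAVA (listed in no order), with build mm10. The annotation release, strand setting and treatment of multimapping reads were not given in the sources used here. Column KO3 carries a number found in no sample title and was placed in P1KO by its name alone. Gene names of the 5 identifiers came with the rule that chose them. The reference table (RefSeq, GRCm38.p6, 49997 genes) matched 0 identifiers and supplied positions by symbol, so the lists of related genes and cell type markers were not analysed here.

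Counts were filtered with filterByExpr (15510 genes left), scaled with TMM (factors 0.983 to 1.01) and tested with edgeR 4.0.16 in R 4.3.3 by the quasi-likelihood F-test without covariates, with Benjamini-Hochberg adjustment over all genes tested. Intervals of a fold change use the SE, taken as its size over the square root of F. The script was run on simulated counts drawn with the same spread in both groups, so that run does not cover the unequal spread of P1KO and CTL. All 5 genes are named, and of the nearest profiles those of the called genes. Log2 CPM used a prior count of 2. Alternatives were DESeq2 1.42.0 and its size factors, library totals, limma-voom (limma 3.58.1), also with a separate spread per group, other filters, summed CTL libraries and each library left out. A minimum change of 1.5-fold was added after seeing the data. The genes, lists and tests were chosen with earlier results of these data known.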

Additional observations from a re-analysis of the deposited data

How the results depend on the processing

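All 5 genes were higher in P1KO under each of the 13 alternatives. Where the groups do not overlap, that direction is fixed in advance. This did not hold for Icam1 by library totals without TMM. There KO1 (3312 reads of 17918834 counts) lay slightly below CTL2 (3301 of 17801587). Icam1 (log2 change 0.03 to 0.08) and Vcam1 (0.11 to 0.13) passed in none. Selp no longer passed without a filter on low counts (1.13), after summing the CTL libraries (1.12) and against a 1.5-fold minimum change (1.13), with adjusted p from 2.89e-70 to 0.172 over all alternatives. Icam2 no longer passed with the CTL libraries summed (0.28) or against 1.5-fold (0.29), with adjusted p from 3.34e-14 to 1. The smallest p came without a P1KO library, where the spread rests on the CTL pair alone and the lone library is assumed to vary like it. With 1 library left out, the log2 change ran from 0.73 to 1.44 for Selp, 0.14 to 0.62 for Sele and 0.25 to 0.33 for Icam2. Selp and Icam2 did not pass without CTL1 or without CTL2, and Sele passed without KO3. With 1 control or summed controls the spread comes from the P1KO pair alone, which varied more than the CTL pair, and far fewer genes of the whole table are called. A lost call there is thus not particular to Selp or Icam2. It does show that their calls with all 4 libraries rest in part on the close agreement of the controls.

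The test called 3027 genes of the table (1501 higher, 1526 lower). Fits under other settings, each with its own calls, gave 1633 of 26155 genes without a filter (810 higher and 823 lower), 152 after summing the CTL libraries (70 and 82) and 270 against 1.5-fold (118 and 152). Leaving out 1 library gave 120 to 5391 (54 to 2675 higher, 66 to 2716 lower). No paired analysis was possible because the labels pair no P1KO library with a CTL library. Column KO3 also carries a number that no sample title has.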
